A study of Mus musculus with 8 samples.

Results

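The small leucine-rich proteoglycans are a family of secreted matrix proteins, and 10 of their genes, Bgn, Dcn, Aspn, Fmod, Lum, Prelp, Omd, Ogn, Epyc and Chad, were followed here through the cells of the adult mouse tibia. They are 10 of the 31053 genes of the deposited matrix and were chosen by name as a list of the family. Single-cell RNA sequencing was performed at postnatal day 56 (8 weeks) on mice that all had the genotype MMP14 F/+, with COL10A1cre, R26-tdT and Col1a1-2.3-GFP, with no treatment named. COL10A1cre acts in hypertrophic chondrocytes, so that tdTomato, read here through its viral 3' element WPRE, marks cells with a history of Cre activity, and the GFP transgene is driven by a Col1a1 promoter fragment that is active in osteoblasts. Growth plate tissue and trabecular bone were digested together, the earliest suspensions, rich in blood cells, were discarded, and the suspension kept was enriched for tdTomato cells. Cells of 3 mice were pooled, and the 8 labelled samples form 1 group whose barcodes carry no mark of sample or mouse, so that no value below has a replicate and no test was made.

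Each of these proteins has a core of leucine-rich repeats that binds collagen fibrils, and many carry chondroitin, dermatan or keratan sulphate chains. In skeletal tissues they set the spacing and thickness of collagen fibrils and hold growth factors such as TGF-beta in the matrix. Biglycan (Bgn), decorin (Dcn) and asporin (Aspn) form class I of the family. Fibromodulin (Fmod), lumican (Lum), PRELP (Prelp) and osteomodulin (Omd) belong to class II, osteoglycin (Ogn) and epiphycan (Epyc) to class III, and chondroadherin (Chad) to class IV.

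Several of the genes are neighbours in the genome (mm10, the GRCm38 assembly). Aspn, Omd and Ogn lie in this order on the plus strand of chromosome 13, within 80.1 kb, with gaps of 14.9 kb between Aspn and Omd and 15.2 kb between Omd and Ogn. Dcn, Lum and Epyc lie on the plus strand of chromosome 10, with the keratocan gene Kera between Lum and Epyc, in a span of 203 kb. Prelp on the minus strand and Fmod on the plus strand of chromosome 1 are 116 kb apart. Aspn spans positions 49544443 to 49567565, Omd 49582462 to 49592822 and Ogn 49608046 to 49624501. Dcn spans positions 97479609 to 97518143, Lum 97565128 to 97572703 and Epyc 97644068 to 97682454, and Prelp spans 133910304 to 133921414 and Fmod 134037254 to 134048277. Bgn is on chromosome X at 73483602 to 73495933 and Chad on chromosome 11 at 94565047 to 94569127. RefSeq promoters, from 250 bases before to 50 bases after a start site, were found for 8 of the 10 genes (GRCm38.p6). Those of the chromosome 13 neighbours, whose RNAs were highest in different cells, and of Epyc and Chad, both known from cartilage, are printed here 5' to 3' on the coding strand, with motif matches in capitals.
Aspn, chr13:49544193-49544492: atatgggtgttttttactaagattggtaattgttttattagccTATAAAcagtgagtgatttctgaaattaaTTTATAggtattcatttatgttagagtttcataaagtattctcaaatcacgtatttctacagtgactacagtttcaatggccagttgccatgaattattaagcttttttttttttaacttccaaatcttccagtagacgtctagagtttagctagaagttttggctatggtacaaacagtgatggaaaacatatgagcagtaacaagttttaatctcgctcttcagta
Omd, chr13:49582212-49582511: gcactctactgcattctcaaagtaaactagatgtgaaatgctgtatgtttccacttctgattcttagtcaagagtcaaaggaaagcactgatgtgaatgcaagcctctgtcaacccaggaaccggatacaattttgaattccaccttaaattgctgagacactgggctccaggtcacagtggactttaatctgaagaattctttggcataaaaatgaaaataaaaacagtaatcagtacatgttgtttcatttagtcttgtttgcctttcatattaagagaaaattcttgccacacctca
Ogn, chr13:49607765-49608064: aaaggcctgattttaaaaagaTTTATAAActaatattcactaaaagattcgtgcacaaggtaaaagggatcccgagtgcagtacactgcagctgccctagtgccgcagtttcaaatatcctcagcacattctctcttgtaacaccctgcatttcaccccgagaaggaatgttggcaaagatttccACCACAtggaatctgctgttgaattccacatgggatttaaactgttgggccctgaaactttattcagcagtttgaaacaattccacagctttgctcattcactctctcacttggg
Epyc, the upstream start, chr10:97643818-97644117: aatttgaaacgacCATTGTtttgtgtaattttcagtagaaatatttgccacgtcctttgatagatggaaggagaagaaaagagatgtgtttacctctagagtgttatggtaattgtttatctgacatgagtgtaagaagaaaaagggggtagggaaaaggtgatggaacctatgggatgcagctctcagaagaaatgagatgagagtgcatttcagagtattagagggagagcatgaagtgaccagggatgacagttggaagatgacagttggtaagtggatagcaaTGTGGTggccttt
Chad, chr11:94564797-94565096: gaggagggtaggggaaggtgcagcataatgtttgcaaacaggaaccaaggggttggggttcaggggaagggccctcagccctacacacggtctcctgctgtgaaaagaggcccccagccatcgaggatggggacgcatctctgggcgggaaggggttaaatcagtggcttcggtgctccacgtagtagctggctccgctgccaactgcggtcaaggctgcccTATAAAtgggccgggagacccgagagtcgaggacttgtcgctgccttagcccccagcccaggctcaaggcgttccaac

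The motifs searched, on both strands, were the TATA box TATAAA, the SOX motif ACAATG or ACAAAG, the RUNX motif TGTGGT and the AP-1 motif TGANTCA. In 32851 promoters of the same length they were found in 13.6%, 28.6%, 16.8% and 7.81%. The Chad promoter holds TATAAA 28 bases before the start site. Aspn holds 2 TATAAA matches, the first 207 bases before the start, and Ogn holds 2 that overlap on opposite strands, the first 229 bases before the start. Ogn and the upstream Epyc promoter each hold 1 RUNX match, and the upstream and downstream Epyc promoters hold 1 and 3 SOX matches. The Omd promoter holds none of these motifs, and no AP-1 match was found in the 9 promoters of the 8 genes. Matches are descriptions of the letters and not binding sites.

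Transcripts were counted as unique molecular identifiers (UMIs). The pool held 12564 barcodes and 91463572 UMIs, between 500 and 103543 per barcode, and 4472 barcodes had at least 1600 genes. Cells were placed in 8 gates by raw UMIs of marker genes: Col2a1 (at least 10, with Prg4 at most 1), Col10a1 or Ihh (together at least 5), Prg4 or Cilp (together at least 2, with Acan at least 1), Bglap (at least 20), Cxcl12 (at least 20, with Lepr and Adipoq at least 2), Col3a1 (at least 5, with Acan at most 1), Rgs5 (at least 3) and Ptprc (at least 1). They held 243, 79, 197, 54, 23, 104, 32 and 3286 cells, with median depths of 19589, 24233, 11940, 25759.5, 7733, 8753, 8506.5 and 10049 UMIs. A cell can pass several gates, and 148 of the 570 cells of the 7 non-blood gates passed more than 1 of these. Every Col10a1 or Ihh cell passed a further gate, 43 that of Col2a1 and 35 that of Prg4 or Cilp, and 25 of the 54 Bglap cells passed that of Col2a1. Levels are therefore given for all cells of a gate and, where it matters, for cells of no other gate. A level is the share of a gene in all UMIs of the same cells, scaled to 1000000 UMIs (counts per 1000000, CPM), with its exact Poisson 95% interval, which covers counting error only and not the variation between cells or mice.

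Marker lists that leave out the gate genes were read in each gate. Cartilage markers such as Col9a1 and Hapln1 summed to 26377 CPM in the Col2a1 gate, 24713 in the Col10a1 or Ihh gate, 15436 in the Bglap gate and 89.4 in the Cxcl12 gate. The osteoblast list reached 26531 CPM in the Bglap gate, the articular list 15216 CPM in the Prg4 or Cilp gate, the marrow stroma list 5446 CPM in the Cxcl12 gate and the mural list 8625 CPM in the Rgs5 gate. The hypertrophic list was at 7476 CPM in the Col10a1 or Ihh gate, below the articular list there at 7980 CPM, and at 4863 CPM in the Cxcl12 gate, where it was above the marrow stroma list in cells of no other gate (6123 against 4371 CPM). The fibroblast and tendon lists were highest in the Col3a1 gate, at 1593 and 594 CPM, where the mural list stood at 3225 CPM and the osteoblast list at 9183 CPM. In Col3a1 cells of no other gate the osteoblast list was at 116 CPM. The fibroblast, tendon and mural lists were at 2710, 894 and 3555 CPM in these cells. Neutrophil markers, at 59218 CPM in the Ptprc gate, were at 734 to 5965 CPM in 6 of the non-blood gates and at 9125 CPM in the Rgs5 gate, above its mural list, but at 273 CPM in the 13 Rgs5 cells of no other gate. Hba-a1, a haemoglobin gene of red blood cells, was highest in the Cxcl12 gate at 9664 CPM, above its marrow stroma list, against 5770.0 CPM in the Ptprc gate and 738 to 4756 CPM in the other non-blood gates. The part of RNA from blood cells in these values was not tested.

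Bgn, whose protein carries chondroitin or dermatan sulphate chains in bone, had the smallest fold between its highest and its lowest non-blood gate of the 10 genes. It was highest in the Cxcl12 gate at 1956 CPM (1773 to 2154) and the Bglap gate at 1903 CPM (1833 to 1975), whose intervals overlap, followed by Col2a1 at 1732 CPM (1698 to 1766), Col3a1 at 1516 CPM (1444 to 1590.4), Col10a1 or Ihh at 1220.3 CPM, Prg4 or Cilp at 1218 CPM and Rgs5 at 966 CPM (862 to 1079). In cells of no other gate the order changed, with Bglap highest at 2343 CPM (2187 to 2508), Cxcl12 at 1758 CPM (1562 to 1973) and Rgs5 lowest at 418 CPM (315 to 544). Single cells within a gate ranged more widely from lowest to highest, counting error of single cells included. Bglap cells lay between 160 and 3612 CPM with quartiles of 1214 and 2352 CPM, and the quartiles were 517 and 1624 CPM among Prg4 or Cilp cells, 381 and 1491 CPM among Col10a1 or Ihh cells and 276 and 1471 CPM among Rgs5 cells. Every one of the 54 Bglap cells, 242 of 243 Col2a1 cells and 103 of 104 Col3a1 cells held Bgn.

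Dcn, the decorin gene, which limits the thickening of collagen fibrils, was highest in the Col3a1 and Prg4 or Cilp gates. It reached 10629 CPM (10438 to 10823) in the Col3a1 gate and 9319 CPM (9206 to 9433) in the Prg4 or Cilp gate. It stood at 2807 CPM (2722 to 2894) in the Bglap gate, 1693 CPM in the Col10a1 or Ihh gate, 666 CPM (645 to 688) in the Col2a1 gate, 451 CPM (366 to 551) in the Cxcl12 gate and 241 CPM (190.3 to 301) in the Rgs5 gate. In the Cxcl12 gate 10 of 23 cells held it and 1 cell held 59.4% of its UMIs, so that its level there rests on few cells. The median Col3a1 cell held 8859 CPM, the median Prg4 or Cilp cell 4624 CPM and the median Col2a1 cell 141 CPM.

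Aspn, which encodes an aspartate-rich protein that inhibits TGF-beta signalling, was narrow. It was at 524 CPM (482 to 568) in the Col3a1 gate, where 63 of 104 cells held it, and at 309 CPM (251 to 375) in the Rgs5 gate, where 21 of 32 did. The next level was 50.6 CPM (42.6 to 59.7) in the Prg4 or Cilp gate, from 16 of 197 cells, of which 1 held 30.5% of the UMIs. In the Col2a1 gate 1 UMI of Aspn was seen in 243 cells.

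The class II genes differed from each other. Fmod, a keratan sulphate proteoglycan of cartilage and tendon, was highest in the Col2a1 gate at 1470.3 CPM (1439 to 1502) and the Prg4 or Cilp gate at 1121 CPM (1082 to 1161). It was at 672 CPM in the Col3a1 gate and 655 CPM in the Col10a1 or Ihh gate, whose intervals overlap. The Bglap gate held 480.4 CPM and the Rgs5 gate 12.3 CPM. No Fmod UMI was seen in the 23 Cxcl12 cells, with an interval of up to 17.3 CPM. Prelp, whose protein also binds basement membranes, was highest in the same gates in the reverse order, with 1105 CPM (1066 to 1145) in the Prg4 or Cilp gate and 958 CPM (933 to 984) in the Col2a1 gate. This order turned in cells of no other gate, with 1247 CPM (1187 to 1309) and 1464 CPM (1419 to 1510), and the median cells of the whole gates held 759 and 760 CPM. Prelp was also present in the Rgs5 gate at 349 CPM (287 to 419) in 19 of 32 cells. The Col3a1 gate held 749 CPM of Prelp, the Col10a1 or Ihh gate 372 CPM, the Bglap gate 181 CPM and the Cxcl12 gate 146 CPM, the last 2 with overlapping intervals.

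Lum, first known from the cornea, was highest in other gates. It was at 1283 CPM (1217 to 1352) in the Col3a1 gate and 1158 CPM (1103 to 1214) in the Bglap gate, levels whose intervals overlap in cells of no other gate, against 361 CPM in the Col10a1 or Ihh gate, 293 CPM in the Prg4 or Cilp gate, 291 CPM in the Col2a1 gate and 9.26 CPM in the Rgs5 gate. It was seen in 51 of 54 Bglap cells and in 57 of 104 Col3a1 cells, where the median cell held 766 and 151 CPM. Omd, also called osteoadherin and known from mineralised tissue, was highest in the Prg4 or Cilp gate at 453 CPM (428 to 478), then in the Col3a1 gate at 215 CPM (188 to 244), whose interval overlaps that of the Col10a1 or Ihh gate at 172 CPM. The Bglap gate followed at 134 CPM (116 to 154), but in cells of no other gate it was at 197 CPM (154 to 249) and the Col3a1 gate at 145 CPM (114 to 183), with overlapping intervals. Omd was seen in 36 of 54 Bglap cells, 83 of 197 Prg4 or Cilp cells and 23 of 104 Col3a1 cells, but Bglap cells were deeper. With every cell thinned to 3000 UMIs the shares were 29.4%, 30.5% (24.1% to 37.4%) and 15.6% (9.06% to 23.8%), and the interval of the Bglap gate overlaps both others. No Omd UMI was seen in the Rgs5 gate, with an interval of up to 11.4 CPM.

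Of the class III genes, Ogn was highest in the Cxcl12 gate, at 607 CPM (506 to 721) and in 21 of 23 cells, with a median cell of 419.8 CPM. The Col3a1 gate was at 198 CPM (173 to 227), the Rgs5 gate at 74.1 CPM and the Prg4 or Cilp gate at 66.4 CPM, whose intervals overlap, and the Bglap gate at 17.6 CPM (11.5 to 25.8). Epyc, known from epiphyseal cartilage, was at 276 CPM (263 to 290.3) in the Col2a1 gate in 172 of 243 cells, 212 CPM (192 to 234) in the Col10a1 or Ihh gate and 145 CPM (126 to 165) in the Bglap gate. It was at 52.4 CPM in the Prg4 or Cilp gate in 13 of 197 cells, at 7.25 CPM in the Col3a1 gate, where 1 cell held 87.5% of its UMIs, and at 0 in the Rgs5 gate.

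Chad, whose protein binds integrins on chondrocytes, was highest in the Prg4 or Cilp gate at 5969 CPM (5878 to 6060.1) and the Col10a1 or Ihh gate at 5022 CPM (4924 to 5122), where all 79 cells held it. It was at 2071 CPM (2033 to 2109) in the Col2a1 gate, 1471 CPM in the Col3a1 gate and 1348 CPM in the Bglap gate, the last 2 with overlapping intervals. In the last 2 it was seen in 41 of 104 and 20 of 54 cells, so that the median cell held none. In the Cxcl12 gate it gave 1 UMI.

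**Figure D1:**
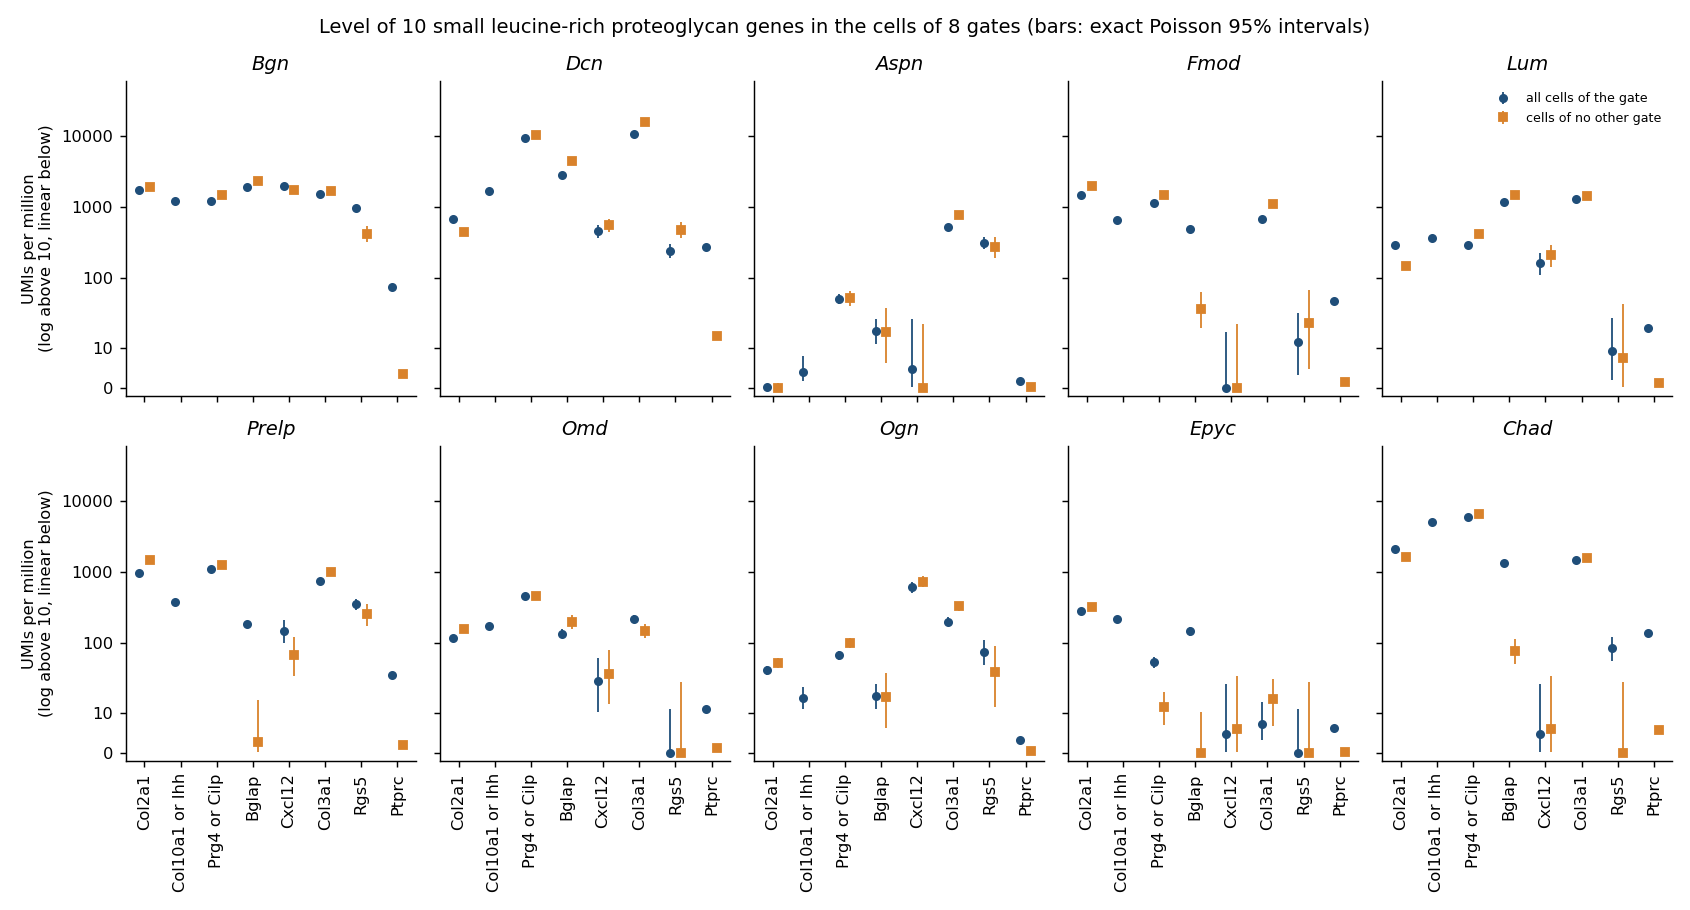
Level of each gene in CPM (vertical axis, logarithmic above 10 and linear below) in the 8 gates (horizontal axis), over all cells of a gate (circles) and over cells that pass no other gate (squares), with bars for exact Poisson 95% intervals. Bgn lies between 966 and 1956 CPM in the 7 non-blood gates over all cells, Ogn peaks in the Cxcl12 gate at 607 CPM, and the Bglap gate loses Epyc and most of Prelp, Fmod and Chad once cells of other gates are left out.

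Because deeper cells show a gene more often, each cell was also thinned to 3000 UMIs, and the shares of cells with a UMI were set beside those of the 3195 cells that passed the Ptprc gate only, where the genes serve as background (median depth 9817 UMIs). This background was between 0.0736% of cells for Epyc and 1.26% for Chad. Thinned, Bgn was seen in 78.3% to 97.2% of the cells of the 7 non-blood gates. Aspn was seen in 51.6% of Rgs5 cells (31.9% to 68.1%) and 48.5% of Col3a1 cells (38.2% to 58.1%), and the next share was 5.31% in the Prg4 or Cilp gate. Ogn was seen in 68.6% of Cxcl12 cells (47.1% to 86.8%), against 27.0% of Col3a1 cells (18.7% to 36.5%). Epyc was seen in 40.6% of Col2a1 cells (34.5% to 47.2%) and Chad in 99.8% of Col10a1 or Ihh cells and 91.6% of Prg4 or Cilp cells (86.5% to 94.9%). Lum was seen in 77.7% of Bglap cells (64.4% to 88.0%) and Fmod in 87.6% of Col2a1 cells (82.8% to 91.5%). Before thinning these last shares were 51 of 54 and 231 of 243 cells.

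The non-blood gates were next compared with blood cells, as a check of the background. All 10 genes were higher past 4-fold in the 570 cells of the 7 non-blood gates than in the 3195 Ptprc cells outside them, and none was lower. In every comparison a gene counted as called when past 4-fold, and was counted if the compared groups held 50 or more of its UMIs in sum. Over all 12678 such genes 16.2% were higher and 10.9% lower past 4-fold. The log2 ratios of the 10 genes lay between 7.16 for Ogn (6.54 to 7.86) and 9.65 for Fmod (9.28 to 10.05), with exact conditional 95% intervals for counting. The Ptprc gate as a whole had higher levels, such as 273 CPM for Dcn, but 91 of its 3286 cells also passed a non-blood gate and held between 83.8% (Ogn) and 97.1% (Fmod) of its UMIs of each gene. In the Ptprc cells outside the other gates Dcn was at 15.0 CPM, with 62.5% of its UMIs in 1 cell, and Bgn at 3.61 CPM.

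To ask how the family differs between the Col3a1 and Col2a1 gates, the 101 Col3a1 cells outside the Col2a1 gate were compared with 240 Col2a1 cells outside the Col3a1 gate. Higher past 4-fold in Col3a1 cells were 4 of the 10 genes, and 1 was lower, against 5.38% and 4.38% of 8492 genes. Aspn differed most, at 584 against 0.180 CPM, a log2 ratio of 11.66 (9.18 to 16.97) that rests on 578 UMIs against 1. Dcn followed with 11229 against 569 CPM, a log2 ratio of 4.30 (4.24 to 4.36), then Ogn at 2.42 (2.15 to 2.70), or 1.91 with each cell weighing the same, and Lum at 2.25 (2.14 to 2.35). The lower gene was Epyc at -5.12 (-6.34 to -4.14). Bgn at -0.26, Prelp at -0.23, Chad at -0.37, Omd at 0.98 and Fmod at -1.01 lay within 4-fold, although the counting intervals of all 5 leave out 0. The median log2 ratio of the 10 genes was 0.37, beside 0.22 over all genes.

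Prg4 or Cilp cells, which carry articular markers, were compared in the same way with Col2a1 cells, 185 against 231. Of the 10 genes 3 were higher past 4-fold and 1 lower, against 2.87% and 3.42% of 8821 genes. Dcn was at 10466 against 685 CPM, a log2 ratio of 3.93 (3.88 to 3.98), Aspn at 8.25 (5.75 to 13.57) from 141 UMIs against 1, and Omd at 2.12 (1.98 to 2.26). Epyc was lower at -4.92 (-5.60 to -4.32), with 8.90 against 269 CPM. Chad was higher by 1.64 (1.60 to 1.67), Lum was not distinguishable at this depth at 0.086 (-0.038 to 0.21), and Bgn and Fmod stood at -0.59 and -0.53. Omd lies close to the 4-fold line, and was at 1.72 without Col10a1 or Ihh cells and at 1.48 with each cell weighing the same. Both comparisons share most of their Col2a1 cells. Neutrophil markers were at 5965 CPM in the Prg4 or Cilp gate and 3036 CPM in the Col2a1 gate. In cells of no other gate they were at 1747 and 207 CPM. The part of neutrophil RNA in these ratios was not tested.

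**Figure D2:**
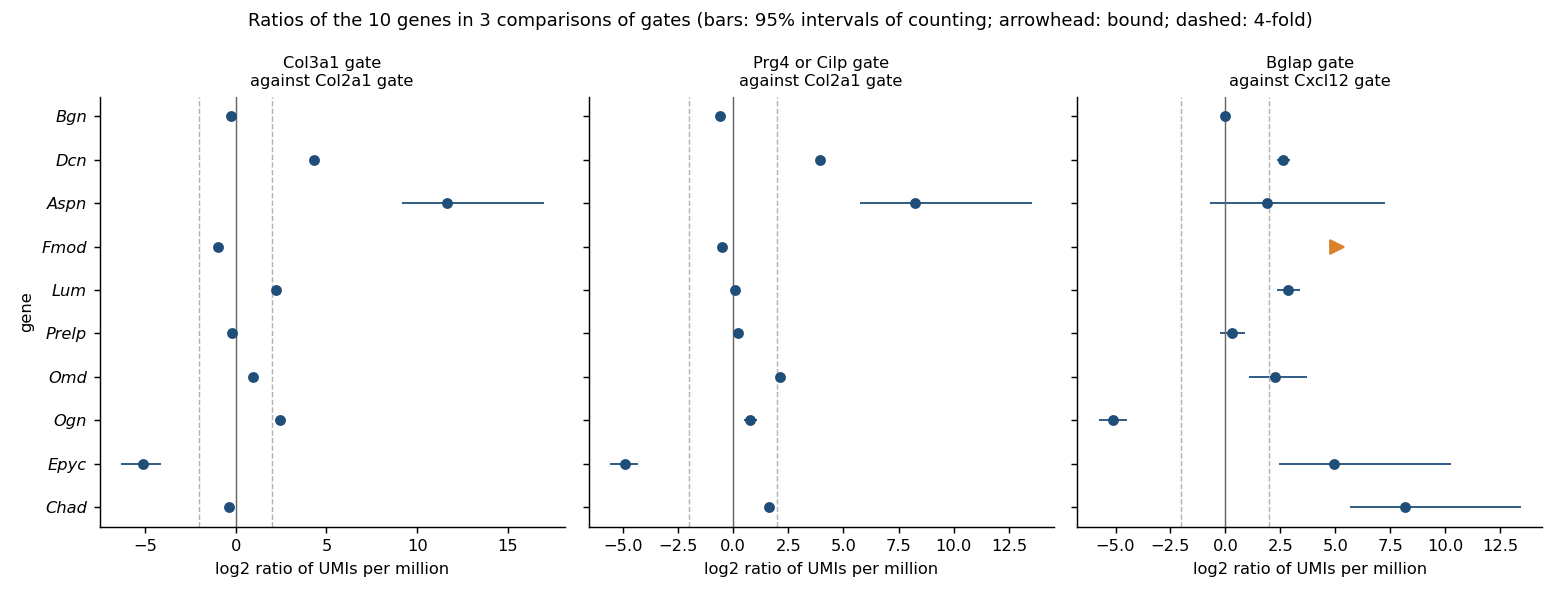
Log2 ratio of CPM (horizontal axis) for each of the 10 genes (vertical axis) in 3 comparisons of gates, with bars for 95% counting intervals, an arrowhead for a bound and dashed lines at 4-fold. Dcn and Aspn lie to the right and Epyc to the left in both comparisons with the Col2a1 gate, and Ogn is the one gene to the left of the 4-fold line between Bglap and Cxcl12 cells, at -5.10.

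The Col10a1 or Ihh gate, meant for hypertrophic and pre-hypertrophic cells, was made of separate sets of cells. Its 35 cells that also passed the Prg4 or Cilp gate, and its 44 that did not, differed past 4-fold in Dcn and Omd, which were higher with Prg4 or Cilp, and in Lum and Epyc, which were lower, against 3.86% and 5.17% of 4097 genes. Dcn was at 5829 CPM (5621 to 6043) with Prg4 or Cilp and 263 CPM (238 to 291) without, and Omd at 576 against 32.7 CPM. Epyc was at 5.91 against 284 CPM and Lum at 63.1 against 464 CPM. Prelp was at 838 against 211 CPM, a log2 ratio of 1.99 (1.77 to 2.20) that lies on the 4-fold line. Chad was high in both, at 8550.0 and 3802 CPM, and seen in every cell of both. More than 14 WPRE UMIs, taken as a mark of Cre history, were held by 24 of the 35 and 21 of the 44 cells. The median depths were 12856 and 32456 UMIs.

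The 36 Col10a1 or Ihh cells outside the Col2a1 gate were compared with the 200 Col2a1 cells outside the Col10a1 or Ihh gate, and 35 of those 36 were Prg4 or Cilp cells. Of 9 genes with 50 UMIs, 2 were higher past 4-fold, Dcn at 2.78 (2.71 to 2.85) and Chad at 2.48 (2.42 to 2.53), and 2 were lower, Fmod at -2.71 (-2.96 to -2.47) and Epyc at -5.60 (-7.88 to -4.05), against 2.22% and 5.18% of 7260 genes. Within 4-fold, Omd was at 1.91 (1.71 to 2.12) and Lum at -1.94 (-2.49 to -1.43). A comparison within the Col2a1 gate was therefore added after the data were seen, between its 43 cells with and its 200 cells without Col10a1 or Ihh. There Dcn was lower at -1.63 (-1.79 to -1.47), and Dcn, Omd and Lum were opposite in sign to the values above beyond counting error, while Epyc was within counting error at 0.090 (-0.075 to 0.25). Prelp, at 214 against 1212 CPM, was lower at -2.50 (-2.67 to -2.33) and Omd, at 33.4 against 144 CPM, at -2.11 (-2.57 to -1.69) on the log2 scale, the 2 genes lower past 4-fold, against 4.81% of 7678 genes. Fmod was at -1.08 and Bgn at -0.35, while Chad was higher at 1.39 (1.34 to 1.44) and Lum at 1.05 (0.91 to 1.19). The median depths were 32457 and 17724 UMIs.

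**Figure D3:**
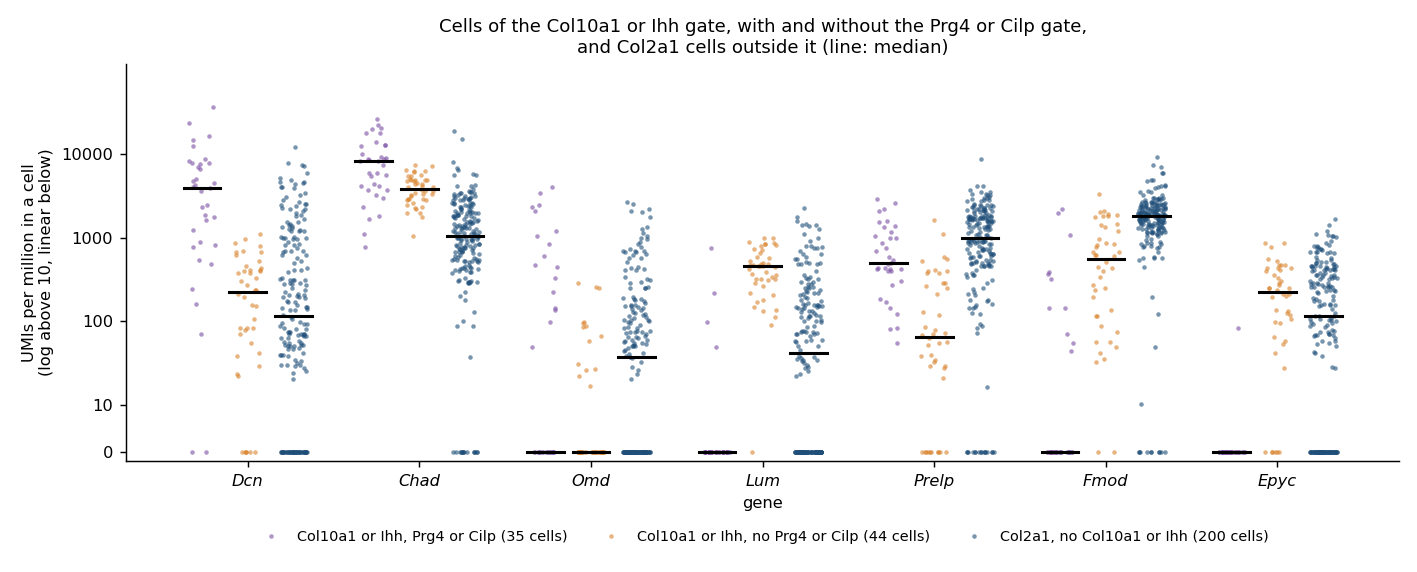
CPM of 7 of the genes (horizontal axis) in each cell (vertical axis, logarithmic above 10 and linear below), for Col10a1 or Ihh cells with (35 cells) and without (44 cells) the Prg4 or Cilp gate and for Col2a1 cells without Col10a1 or Ihh (200 cells), with a line at the median. Dcn is high in the cells that also pass the Prg4 or Cilp gate, with a median of 3916 CPM against 223 CPM in the other Col10a1 or Ihh cells, and Epyc and Lum are at a median of 0 there.

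The gates with osteoblast and marrow stroma markers were compared through the 54 Bglap and 23 Cxcl12 cells. Of 9 genes, 6 were higher past 4-fold in Bglap cells and 1 was lower, against 6.2% and 6.49% of 3821 genes. Over all cells of the gates Bgn was not distinguishable, at 1903 against 1956 CPM and a log2 ratio of -0.040 (-0.19 to 0.11). Lum was higher at 2.86 (2.37 to 3.39) and Dcn at 2.64 (2.34 to 2.94), and Omd at 2.24 (1.10 to 3.71) from 197 UMIs against 6. Ogn was the lower gene, at 17.6 against 607 CPM and a log2 ratio of -5.10 (-5.77 to -4.49). Fmod was at 480.4 CPM against no UMI, a log2 ratio of at least 5.09, Chad at 8.16 (5.68 to 13.47) and Epyc at 4.94 (2.45 to 10.25), the last 2 against 1 UMI each. These 3 are also genes of the Col2a1 gate, and 8 of 8 cartilage markers were detected in Bglap cells, summing to 15436 CPM, against 4 of 8 and 89.4 CPM in Cxcl12 cells. Prelp was at 0.31 (-0.23 to 0.90) over all cells of the gates, but this value turned without the Bglap cells that also passed the Col2a1 gate, to -4.02 (-5.74 to -2.64), from 5 UMIs in 29 Bglap cells. In cells of exactly 1 gate, 18 on each side, 3 genes were higher past 4-fold in place of 6, against 5.8% of 1206 genes. There Chad was at a log2 ratio of 3.65 (1.05 to 9.004) from 27 UMIs against 1, too few to be counted, Fmod at a bound of at least 1.01, Bgn at 0.41 (0.22 to 0.61) and Prelp at -4.57 (-9.99 to -1.78) from 1 UMI against 11. Hba-a1 was at 4379.9 CPM in Bglap cells and 9664 CPM in Cxcl12 cells, and the part of red blood cell RNA in these ratios was not tested.

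The Bglap gate was then split by the Col2a1 gate, a split added after the data were seen. The 25 cells that passed both had a median of 32457 UMIs and the 29 others 17423 UMIs. All 213 Epyc UMIs of the gate were in the former, in 13 of 25 cells, so that Epyc was at 232 CPM (202 to 265) against 0 in 29 cells, where 3 counts allow a log2 ratio of at least 5.43. Prelp was at 285 against 8.99 CPM, Fmod at 728 against 71.9 CPM and Chad at 2009 against 257 CPM, log2 ratios of 4.99 (3.75 to 6.62), 3.34 (2.88 to 3.84) and 2.97 (2.72 to 3.22). The intervals of Bgn overlapped, at 1881 and 1940.5 CPM. The other direction was taken by Omd at 62.1 against 252 CPM, Lum at 739 against 1849 CPM and Dcn at 2149.9 against 3892 CPM, log2 ratios of -2.02 (-2.49 to -1.57), -1.32 (-1.47 to -1.18) and -0.86 (-0.94 to -0.77), and at low counts by Ogn at -2.16 (-3.66 to -0.85) from 7 against 19 UMIs and by Aspn at -3.84 or lower from 0 against 26. Scrublet called none of the 54 cells a doublet, and 14 of the 54 held Ptprc. Whether some of these barcodes hold RNA of more than 1 cell was not tested further. In cells of the Bglap gate that passed no other gate (18 cells), Bgn at 2343 CPM, Dcn at 4402 CPM, Lum at 1489.8 CPM and Omd at 197 CPM were the genes seen in at least 14 cells, and Chad, Fmod and Prelp were seen in 2, 2 and 1 cells.

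**Figure D4:**
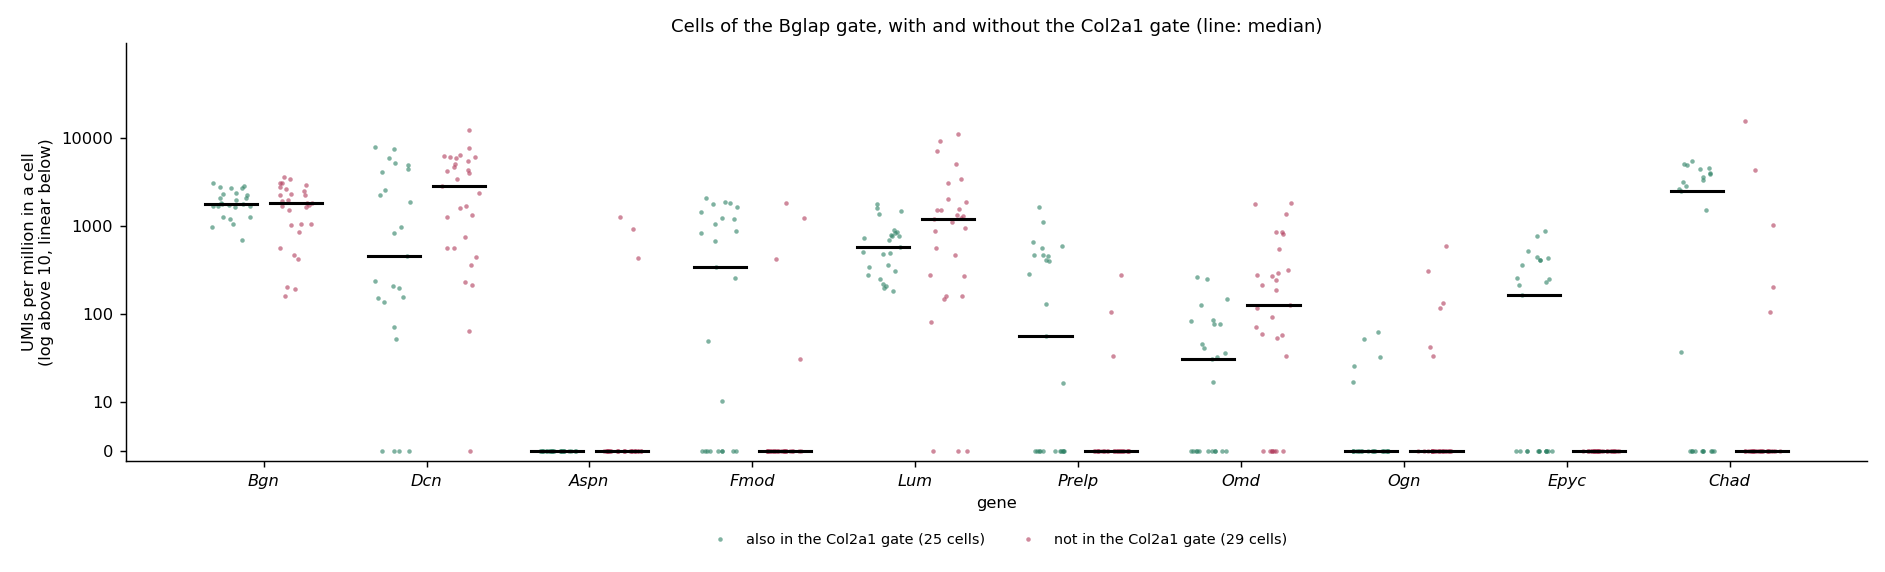
CPM of each gene (horizontal axis) in each cell of the Bglap gate (vertical axis, logarithmic above 10 and linear below), for 25 cells that also pass the Col2a1 gate and 29 that do not, with a line at the median. Bgn medians are 1785 and 1806 CPM, while the Epyc median is 163 CPM in the former and no Epyc UMI lies in the latter.

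The cells of the Bglap gate were also divided by Cre history, into 17 with more than 14 WPRE UMIs and 37 with at most 14. None of 8 genes with 50 UMIs was higher past 4-fold and 3 were lower, against 0.315% and 2.74% of 3172 genes. The lower genes were Prelp at -3.84 (-5.16 to -2.77), Fmod at -2.76 (-3.27 to -2.29) and Epyc at -2.15 (-2.96 to -1.43), the last at -1.80 without its top cell. Bgn at 0.066 (-0.053 to 0.19) and Lum at -0.071 (-0.23 to 0.085) were within counting error, Dcn was at 0.42 and Chad at -1.26. Cells of the Col2a1 gate were 6 of the 17 and 19 of the 37, and the medians were 24811 and 27820 UMIs. Among the 29 cells outside the Col2a1 gate, 11 against 18, Bgn was at 0.13 (-0.042 to 0.31) and Dcn at 0.077 (-0.046 to 0.20), Lum at -0.63 (-0.81 to -0.44) and Omd at -1.63 (-2.26 to -1.03). With 50 UMIs or more, 1 gene was lower past 4-fold, against 3.48% of 1120 genes in this split, and it was none of the 3 above but Chad, at 0 against 474 CPM and a log2 ratio of -5.33 or lower. Fmod, at 0 against 133 CPM and -3.49 or lower, fell short of the 50 UMIs with 40, as did Prelp with 1 against 4, and Epyc had no UMI on either side. The UMIs of Chad and Fmod came from 5 and 4 of the 18 cells.

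Within the Col3a1 gate, 17 of 104 cells also passed the Rgs5 gate, where mural markers such as Acta2 are high. These 17 cells had Bgn at 1527 CPM (1340.4 to 1732), against 1514 CPM (1437 to 1595) in the other 87, and Aspn at 404 against 544 CPM, a log2 ratio of -0.43 (-0.83 to -0.053). Prelp was at 442 against 801 CPM. Dcn, by contrast, was at 37.9 CPM (13.9 to 82.4) against 12406 CPM (12182 to 12632), a log2 ratio of -8.36 (-9.80 to -7.23), and Lum, Fmod and Chad gave 2, 1 and 1 UMIs against 1414, 741 and 1622. No Omd UMI was seen against 237, a log2 ratio of -3.73 or lower.

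Dcn and Aspn coincided in some cells and not in others. Of the 87 Col3a1 cells without Rgs5, 47 held both, 33 held Dcn alone, 2 Aspn alone and 5 neither. Of the 32 Rgs5 cells, 2 held both, 10 Dcn alone, 19 Aspn alone and 1 neither. The 19 Rgs5 cells with Aspn alone all held a mural marker UMI, at 14152 CPM for the list of 7 genes, and 2 of the 10 with Dcn alone did, at 790 CPM. Mural markers were also held by cells with neither gene, by the 1 Rgs5 cell at 51680 CPM and by all 5 Col3a1 cells without Rgs5 at 11309 CPM, and by 30 of the 47 with both genes at 139 CPM. The 10 Rgs5 cells with Dcn alone were deeper than the 19 with Aspn alone, with a median of 12820 against 7187 UMIs.

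**Figure D5:**
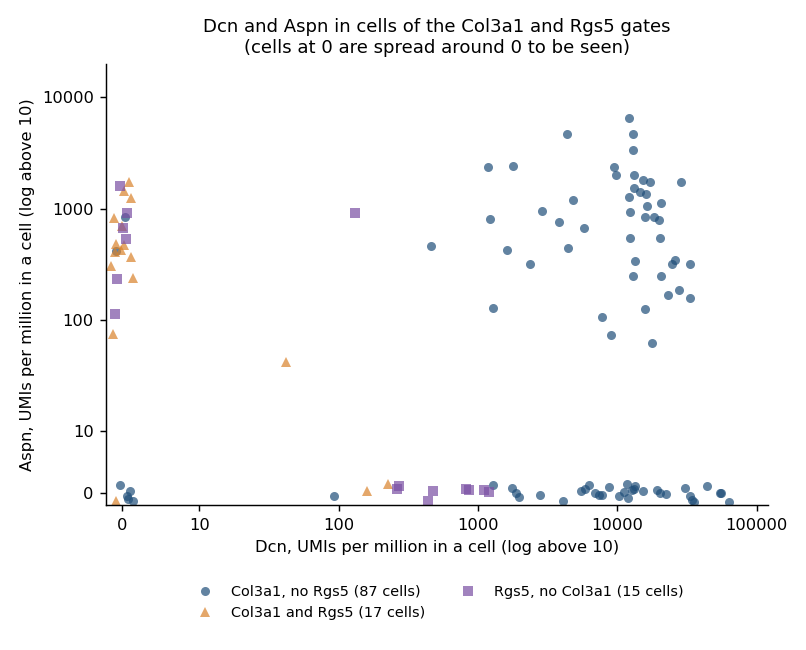
Dcn (horizontal axis) and Aspn (vertical axis) in CPM of each cell of the Col3a1 and Rgs5 gates, both axes logarithmic above 10 and linear below, with cells at 0 spread around 0. The 47 Col3a1 cells without Rgs5 that hold both genes lie at the upper right, and 19 of the 32 Rgs5 cells lie on the left edge with Aspn alone.

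How the genes vary together was read over cells and over gates, as descriptions without a test. In the Bglap gate the correlation of unthinned log2(CPM + 10) between cells was 0.87 for Prelp with Epyc and 0.84 for Fmod with Epyc, and -0.73 for Dcn with Epyc, over 54 cells. In the Col2a1 gate it was 0.70 for Fmod with Prelp and -0.59 for Dcn with Epyc over 243 cells. Dcn and Epyc were both seen in 10.9% of thinned Col2a1 cells, where the product of their single shares is 18.5%. In the Col3a1 gate Dcn and Lum had the highest correlation, at 0.56 over 104 cells. Cells of a gate share a library, differ in depth and can pass different other gates. In the Bglap gate all 213 Epyc UMIs were in the 25 cells of the Col2a1 gate. These held 262 Prelp and 668 Fmod UMIs, against 5 and 40 in the 29 others. In the Col3a1 gate the 17 cells of the Rgs5 gate held 6 Dcn and 2 Lum UMIs, against 11724 and 1414 in the 87 others. The part of these sets in the correlations was not tested.

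Over the 8 gates, which share cells, levels as log2(CPM + 10) correlated most for Fmod with Chad (r = 0.96), Dcn with Omd (r = 0.90) and Fmod with Omd (r = 0.86), and least for Aspn with Epyc (r = -0.52). Among genomic neighbours on chromosome 13, Aspn and Omd had r = -0.019, Omd and Ogn r = 0.0025 and Aspn and Ogn r = 0.37. On chromosome 10 Dcn and Lum had r = 0.81, Lum and Epyc 0.54 and Dcn and Epyc 0.28, and on chromosome 1 Prelp and Fmod had r = 0.65. Over the 7 gates that have cells of exactly 1 gate, which share no cells, Fmod with Chad had r = 0.96, Dcn with Omd 0.79, Fmod with Omd 0.74 and Aspn with Epyc -0.23, and the neighbours in the order above had 0.046, 0.31 and 0.25, then 0.87, 0.15 and 0.041, and 0.85. Among 12665 genes, those most like each gene were Snx7 for Bgn, Cdr2 for Dcn, Dpt for Aspn, Prss36 for Fmod, Pcdhgc3 for Lum, Setd7 for Prelp, Ncoa3 for Omd, Clip3 for Ogn, Prss50 for Epyc and Nab2 for Chad, with r from 0.956 to 0.992. Each of these r rests on 8 points that share cells. The Ptprc gate is 1 of the points in every r over gates. Its cells of no other gate held Dcn at 15.0 CPM and the other genes of the list at lower levels. Its weight in these r was not tested.

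Of 7 further genes of the family, Ecm2, the neighbour of Aspn on chromosome 13, was the one with 50 UMIs in a comparison of non-blood gates. It was higher past 4-fold in Col3a1 cells at 2.76 (2.48 to 3.03) and in Prg4 or Cilp cells at 2.87 (2.63 to 3.12), both against Col2a1 cells. Podnl1 was at 98.8 CPM (61.1 to 151) in the Cxcl12 gate, from 21 UMIs in 12 of 23 cells, and below 10 CPM in the other gates. Podn was at 27.2 CPM (18.3 to 38.8) in the Col3a1 gate and 23.5 CPM (7.63 to 54.9) in the Cxcl12 gate. In the Rgs5 gate it was at 21.6 CPM (8.69 to 44.5), and all of these intervals overlap. Kera, Optc, Nyx and Tsku had between 0 and 16 UMIs in each gate.

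The 36 genes of the proteoglycan pathway, which make and modify the chains, cleave propeptides or encode bound collagens, growth factors and receptors, were counted in the same comparisons. Against Col2a1 cells, 4 of 30 were higher and 2 lower in Col3a1 cells (5.38% and 4.38% of all genes), led by Col14a1 at 9.62, Eln at 8.91 and Col11a1 at -4.13, and 2 of 28 were higher and 1 lower in Prg4 or Cilp cells (2.87% and 3.42%), namely Tlr2 at 3.58, Chst1, a keratan sulphate sulfotransferase, at 2.77 and Col11a1 at -2.11. Their medians were 0.31 and 0.0089. In the comparison of Col10a1 or Ihh cells 2 of 28 were higher and 4 lower (2.22% and 5.18% of all genes), led by the type I collagen genes Col1a1 at -7.55 and Col1a2 at -4.45 and by Tlr2 at 3.38. Of the 243 Col2a1 cells, 25 also passed the Bglap gate. The osteoblast list was at 6393 CPM in the Col2a1 gate and 1588 CPM in its cells of no other gate. The part of these cells in the collagen ratios was not tested. Bglap cells had 6 of 19 higher than Cxcl12 cells and none lower (6.2% and 6.49%), led by Col1a1 at 7.44, Col11a1 at 6.82 and Col1a2 at 4.97, and non-blood cells 23 of 35 higher than Ptprc cells and none lower (16.2% and 10.9%), led by Tgfb2 at 10.05 and Col11a1 at 9.51, with Col12a1 next. In the WPRE comparison none of 17 was higher and 2 were lower (0.315% and 2.74% of all genes), Tgfb2 at -4.87 and Col12a1 at -2.33.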

How the data were processed

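Single-cell RNA sequencing of 1 pool was analysed. The authors deposited raw counts of UMIs per gene and barcode, made with Cell Ranger 3.1.0 from reads aligned to mm10 and to exogenous sequences, and per the labels used Seurat 3. No source used here names the annotation. Coordinates came from GENCODE M21, which held 30934 of the 31053 identifiers. The floor of 1600 genes follows the study, and no mitochondrial limit was set. Intervals (Poisson, Clopper-Pearson, conditional binomial) are exact and cover counting error only. Where 1 side had 0 UMIs, 3 counts gave the bound. Cells were thinned to 3000 UMIs in 100 seeded draws. Scrublet (scanpy 1.11.5, expected rate 6%) marked 5.72% of kept barcodes as doublets, which were left out only in an alternative. Correlations used log2(CPM + 10). Python 3.11.15, numpy 2.4.6, scipy 1.17.1 and pandas 2.3.3 were used, and the ratio script was tested on simulated data.

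Named genes are the 10 members, further family genes, the 3 pathway genes of largest ratio past 4-fold in each comparison and the gene most like each member. Alternatives changed the gene floor, mitochondrial limit, Ptprc-holding cells, gate overlap, doublets, gate thresholds, cell weights, fold, WPRE threshold and top cell. Members, gates and lists were chosen with earlier results of these data known, and the splits of the Bglap, Col3a1, Col2a1 and Col10a1 or Ihh gates were added after the data were seen. The labelled samples share 1 matrix, so none could be compared or left out. 1 marker gene is not reported here.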

Additional observations from a re-analysis of the deposited data

Results flagged for a closer look

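Data outside the gates also held UMIs of the 10 genes. The 8092 barcodes under the gene floor held 2744 of them, or 81.1 CPM, in 793 barcodes, and 29 barcodes with at least 10 held 63.6% of these. The 707 cells of no gate held 1327, or 155 CPM, of which 83.6% were in 15 cells. The Ptprc cells outside the other gates, the background, stood at 31.1 CPM, of which 63.2% were in 8 of 3195 cells.
These were noted because they lie outside every comparison and above that background.

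EGFP, the reporter transcript, which no gate used, was seen in 27 of the 54 Bglap cells, against 0 of 23 Cxcl12 cells (interval to 14.8%) and 0.761% of Ptprc cells (0.493% to 1.12%). Dcn was at 4640.4 CPM (4484 to 4801) in the 27 cells with EGFP and 1063 CPM (991 to 1139) in the 27 without. Chad was at 9.74 CPM (3.92 to 20.1) with and 2621 CPM (2507 to 2739.5) without, and Epyc at 0 with and 282 CPM (245 to 323) without. Prelp was at 2.78 against 351 CPM and Fmod at 23.7 against 915 CPM, while Bgn was at 2123 against 1695 CPM. Of the 25 Bglap cells that passed the Col2a1 gate, 6 held EGFP, and these had no UMI of Chad or Epyc and had Dcn at 5532 CPM. Over all 54 cells the median depth was 24168 UMIs with EGFP and 27274 without.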

How the results depend on the processing

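The alternatives gave 287 values for ratios reported past 4-fold, of which 274 stayed past it and 2 took the other sign. Both were in the comparison within the Col2a1 gate, chosen after seeing the data, with Dcn at -1.63 and Epyc at 0.090, the latter within counting error of 0. Omd and Lum, reported within 4-fold, also turned there, to -2.11 and 1.05, and 0 genes were higher past 4-fold in Col10a1 or Ihh cells, against 1.29% of all genes. With each cell weighing the same, 4 genes were lower in Col10a1 or Ihh cells than in Col2a1 cells, against 5.49% of all genes. At 2-fold, 2 genes were lower in Col3a1 cells, 5 in Col10a1 or Ihh cells and 5 in WPRE cells, against 10.2%, 16.7% and 7.72% of all genes. In cells of exactly 1 gate, 3 genes were higher in Bglap than in Cxcl12 cells (5.8% of all genes), and 0 were lower in WPRE cells (1.3%), where only 9 cells a side were left. Without Col2a1-gate cells, a choice also made after seeing the data, 1 gene was lower in WPRE cells (3.48%), Chad, which is none of the 3 reported, while Fmod, at -3.49 or lower, was no longer counted because it had under 50 UMIs. The cause of these moves was not tested. The other 100 of 108 counts stayed within 1.5 times the reported ones. Single values moved more often: 194 of 550 levels and 149 of 526 log2 ratios, those with a changed sign included, lay outside the reported counting interval (or, for a bound, fell within 4-fold), and so did 43 of 80 shares of cells once thinned. Of the levels, 56 of 70 moved in cells of exactly 1 gate and 51 of 80 with each cell weighing the same. No Col10a1 or Ihh cell passed exactly 1 gate, so that alternative gave no value there.

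The spread between mice is unknown, and levels in the Cxcl12 and Rgs5 gates rest on 23 and 32 cells. No paired analysis was possible because the labelled samples are pooled in 1 matrix, and for the same reason no sample could be left out.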
